A study of Cocos nucifera and Zingiber officinale with 11 samples.

Results

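MIR-156, MIR-157, MIR-529 and MIR-535 are plant miRNAs that act on the same transcription factor genes, and the merged miRNA table of the study lists 26 names of these families among 418. A name was taken as a member when its number was that of MIR-156, MIR-157, MIR-529 or MIR-535. This rule uses no level, but earlier results of these data were known when the members were chosen. MIR-156 gave 19 names (11 on the 5p arm and 8 on the 3p arm), MIR-157 gave 3 (1 on the 5p and 2 on the 3p arm), MIR-535 gave 3 and MIR-529 gave 1. The small RNA came from edible plant-derived exosome-like nanoparticles (EPDELNs), which are vesicles pelleted by ultracentrifugation from the juice of market fruit and vegetables. The plants were pea, soybean, ginger, tomato, Hami melon, coconut, blueberry, pear, kiwifruit, grapefruit and orange, untreated and with 1 library each, and the labels of the pea library also name lima bean. Levels were deposited in RPM (reads of a name scaled to a fixed read total), and every value was a whole multiple of 1 step per library, so the reads behind each level were recovered. With 1 library per plant there was no replicate and no test between plants. The 95% intervals (Wilson for shares, exact Poisson for RPM) cover counting error only and leave out variation between samples of a plant. They can be too narrow even for counting error, since PCR copies of 1 molecule are not independent.

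In plants, MIR-156 and MIR-157 hold back the SQUAMOSA PROMOTER BINDING PROTEIN-LIKE (SPL) transcription factors, and in this way they keep a young plant in its juvenile phase. As their level drops with age, SPL factors switch on MIR-172, which acts on AP2-like floral repressors, and the plant becomes able to flower. MIR-529 and MIR-535 pair with SPL transcripts as well, as known from rice, and in tomato the ripening gene Colorless non-ripening is an SPL gene that MIR-156 and MIR-157 recognise. The 5p strand of the MIR-156 hairpin is the strand that guides cleavage, and the 3p strand is its passenger.

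The sequences that follow carry most of the level or set the classes used later. Each is the most abundant read that the files list for the name in the library given, written 5′ to 3′ as DNA, with the seed (bases 2 to 8) in capitals.
aly-MIR-156e-5p, 10 libraries: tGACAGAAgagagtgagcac
gma-MIR-156n, 6 libraries: tTGACAGAagagagtgagcac
gma-MIR-156f in pea, mtr-MIR-156a in soybean: tTGACAGAagagagagagcac
ath-MIR-157c-5p, 7 libraries: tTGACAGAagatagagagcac
osa-MIR-535-5p, 4 libraries: tGACAACGagagagagcacgc
mdm-MIR-535d in kiwifruit: tGACGACGagagagagcactc
osa-MIR-529b in orange: aGAAGAGGgagagtacagct
mtr-MIR-156i-3p in soybean: gCTCACTTctctttctgtca
aly-MIR-157d-3p in orange: gCTCTCTGtgcttctgtcatca
mtr-MIR-156c-3p in tomato: gCTTACTCtctatctgtcaccc

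The first letters of a name give the species of the reference and not the plant that was sequenced (aly for Arabidopsis lyrata, ath for Arabidopsis thaliana, gma for soybean, mtr for Medicago truncatula, osa for rice, mdm for apple). Positions below count from 1 at the 5′ end of the aly-MIR-156e-5p reference, whose base stands first. By these positions 5p reads of MIR-156 and MIR-157 without a difference were called the MIR-156e type, those with T14A the MIR-156a type, and those with G11T and T14A the MIR-157c type. The MIR-156e and MIR-156n reads have the same core, and the MIR-156n read carries 1 extra base at its 5′ end, which moves the seed from GACAGAA to TGACAGA. Of the 5p MIR-156 and MIR-157 reads, TGACAGA was the seed in 25 pairs of name and library (7 names, 10 libraries) and GACAGAA in 13 pairs (3 names, all 11 libraries). Aligned without gaps, the MIR-535 reference matched 13 of 20 aligned bases of the mtr-MIR-156a reference. Both begin with the same bases, which this alignment, shifted by 1 base, counts as mismatches, so the value understates their likeness. The MIR-529 reference starts 4 bases further in and matched 16 of 17. These counts therefore do not show which of MIR-535 and MIR-529 is closer to MIR-156. Of the 66 pairs among the 12 references of 5p MIR-156 and MIR-157, 53 lay within 2 mismatches, which is the limit the authors allowed when assigning reads, so a read can fit several names. For this reason the level of a class or of the whole group is firmer than that of a name.

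The 26 names held most of a library in none of the plants, and their share of the summed miRNA level differed widely between them. The share was highest in ELNs of pea, at 11.2% (interval 10.9 to 11.5). Coconut followed with 5.68% (5.04 to 6.39) and blueberry with 2.53% (2.42 to 2.64). Kiwifruit, soybean and ginger lay together at 2.03%, 2.02% and 1.82%, and their intervals overlapped. Pear had 0.992% (0.936 to 1.05) and Hami melon 0.692% (0.639 to 0.749). The lowest shares were 0.219% in orange (0.199 to 0.242), 0.0901% in tomato (0.0753 to 0.108) and 0.0405% in grapefruit (0.0335 to 0.0491). Apart from kiwifruit, soybean and ginger, no neighbours in this order had overlapping intervals. The median was 1.82% and the mean 2.49% ± 3.32 (SD over the 11 libraries).

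In RPM the order was another, because the summed RPM of all miRNAs ran from 2939 in coconut to 533332 in soybean. Pea had 14859 RPM of the members and soybean 10747 RPM. Ginger, kiwifruit and blueberry had 1300, 1174 and 964 RPM, and Hami melon and pear 443 and 328 RPM. Coconut, with the second highest share, had 167 RPM, and orange and grapefruit had 85.0 and 84.6 RPM at shares that differed beyond their intervals. Tomato was lowest at 25.95 RPM. The reads behind these levels numbered 105 in grapefruit to 7656 in kiwifruit, and the read totals by which RPM was scaled ran from 236959 (ginger) to 6518871 (kiwifruit). These totals were recovered from the RPM values and are not the high-quality read numbers that the paper reports for the libraries. The number of members listed was 11 in kiwifruit, 9 in orange, 7 each in blueberry, pea and pear, 6 each in Hami melon, soybean and tomato, 4 each in coconut and ginger, and 2 in grapefruit. Values began at 0.767 RPM in kiwifruit and at 29.5 RPM in ginger, so the same low level could be listed in the first and missing in the second.

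**Figure D1:**
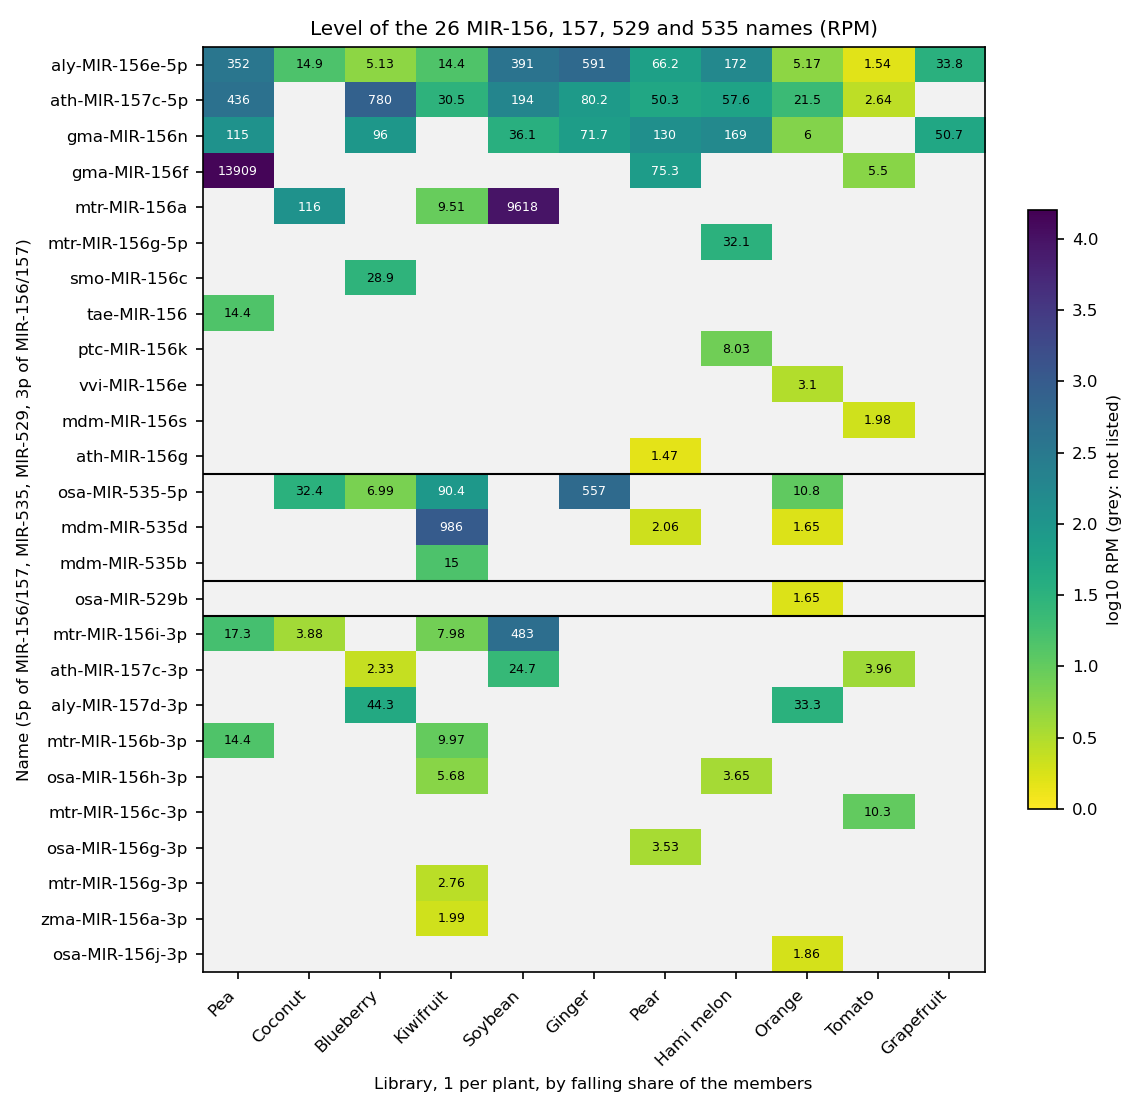
Level in RPM of the 26 members (y axis) in the 11 libraries (x axis, 1 per plant, from the highest share to the lowest), coloured by log10 RPM, with grey for names that are not listed. aly-MIR-156e-5p fills its whole line, and the darkest cells are gma-MIR-156f in pea (13909 RPM) and mtr-MIR-156a in soybean (9618 RPM).

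The member found everywhere was aly-MIR-156e-5p, a 5p strand that pairs with SPL transcripts and is listed in all 11 libraries. It stood at 591 RPM in ginger, 391 RPM in soybean, 352 RPM in pea, 172 RPM in Hami melon and 66.2 RPM in pear. It stood at 33.8 RPM in grapefruit, 14.9 RPM in coconut, 14.4 RPM in kiwifruit, 5.17 RPM in orange, 5.13 RPM in blueberry and 1.54 RPM in tomato. The read was the same 20 bases in 10 libraries, and in pear it lacked the last base. In tomato the value rests on 7 reads, with an interval of 0.619 to 3.17 RPM. At a limit of 29.5 RPM, the smallest listed value of ginger, aly-MIR-156e-5p was listed in 6 libraries and no member reached 8.

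gma-MIR-156n, which has the same core with the extra base, was listed in 8 libraries. It stood at 169 RPM in Hami melon, 129.5 RPM in pear, 115 RPM in pea, 96.0 RPM in blueberry, 71.7 RPM in ginger, 50.7 RPM in grapefruit, 36.1 RPM in soybean and 5.996 RPM in orange. In blueberry its listed read had T14A and belonged to the MIR-156a type. In the other 7 libraries the ratio of MIR-156n to MIR-156e reads sets the name with the longer start beside that with the shorter start of the same core. The ratio was 1.96 in pear (exact interval 1.66 to 2.31), 1.5 in grapefruit (0.999 to 2.27), 1.16 in orange (0.656 to 2.07) and 0.983 in Hami melon (0.817 to 1.18). It was 0.328 in pea (0.223 to 0.472), 0.121 in ginger (0.0688 to 0.201) and 0.0922 in soybean (0.0544 to 0.148). Between these names, the longer start thus led in pear and the shorter start in pea, ginger and soybean. In grapefruit, orange and Hami melon the interval included equal numbers. The intervals do not cover other sequences under a name or reads assigned to a similar name. In soybean and pea the MIR-156a type, which has the longer start and differs at 1 base, had 5063 and 4821 reads, against 19 and 40 of MIR-156n.

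The MIR-156a type held the highest levels of the whole group, and the same 21 bases stood under different names. In pea they were listed as gma-MIR-156f at 13909 RPM (13520 to 14308), place 3 of 80 and 93.6% of the members' level. In soybean they were listed as mtr-MIR-156a at 9618 RPM (9355 to 9887), place 12 of 127 and 89.5% of the members' level. Coconut listed the same core without the extra base as mtr-MIR-156a at 116 RPM, 69.4% of the members' level. In pear and tomato the 21 bases were gma-MIR-156f, at 75.3 and 5.50 RPM, and in blueberry they were gma-MIR-156n. mtr-MIR-156a and gma-MIR-156f, whose references do not differ over 21 shared bases, were in no library together. In kiwifruit the read listed for mtr-MIR-156a (9.51 RPM) had G11A and T14A, the read that blueberry listed as smo-MIR-156c at 28.9 RPM. The name of the leading MIR-156a type therefore gives no difference in sequence between pea and soybean.

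ath-MIR-157c-5p, a relative of MIR-156 that also pairs with SPL transcripts, was listed in 9 libraries. It stood at 779.9 RPM in blueberry (743 to 818), where it ranked 6 and made up 80.9% of the members' level. The other levels were 436 RPM in pea, 194 RPM in soybean, 80.2 RPM in ginger, 57.6 RPM in Hami melon, 50.3 RPM in pear, 30.5 RPM in kiwifruit, 21.5 RPM in orange and 2.64 RPM in tomato. Blueberry was the only library of the 11 led by the MIR-157c type, with the other libraries at 25.3% (orange) of the members' level or less. In blueberry the read had 1 base more at its end than the reference. In orange it differed from the reference at 1 base and was the read that tomato listed under mdm-MIR-156s (1.98 RPM).

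MIR-535, a family known in rice to act on SPL genes, led the members in kiwifruit. Its 3 names held 1092 RPM there, 92.9% of the members' level (92.4 to 93.5), with mdm-MIR-535d at 986 RPM (962 to 1011), osa-MIR-535-5p at 90.4 RPM and mdm-MIR-535b at 15.0 RPM. The kiwifruit read of mdm-MIR-535d differed from the osa-MIR-535-5p reference by A5G and G20T, counted from the 5′ end of that reference. Of these A5G is in the mdm-MIR-535d reference itself. Reads of MIR-535 were 20.0 times (18.02 to 22.4) those of 5p MIR-156 and MIR-157 in kiwifruit. In ginger the ratio was 0.750 (0.594 to 0.945), in orange 0.347 (0.254 to 0.468) and in coconut 0.248 (0.178 to 0.339). It was 0.00768 in blueberry and 0.00638 in pear.

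osa-MIR-535-5p on its own stood at 557 RPM in ginger, where aly-MIR-156e-5p (591 RPM) had an overlapping interval (466 to 661 against 497 to 697). It stood at 32.4 RPM in coconut, 10.8 RPM in orange and 6.99 RPM in blueberry, and mdm-MIR-535d at 2.06 RPM in pear and 1.65 RPM in orange. Grapefruit, Hami melon, pea, soybean and tomato listed no MIR-535 name. Without MIR-529 and MIR-535 the share of the members was 0.143% in kiwifruit and 1.04% in ginger. The only MIR-529 name, osa-MIR-529b, was listed in orange at 1.65 RPM, on 8 reads.

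**Figure D2:**
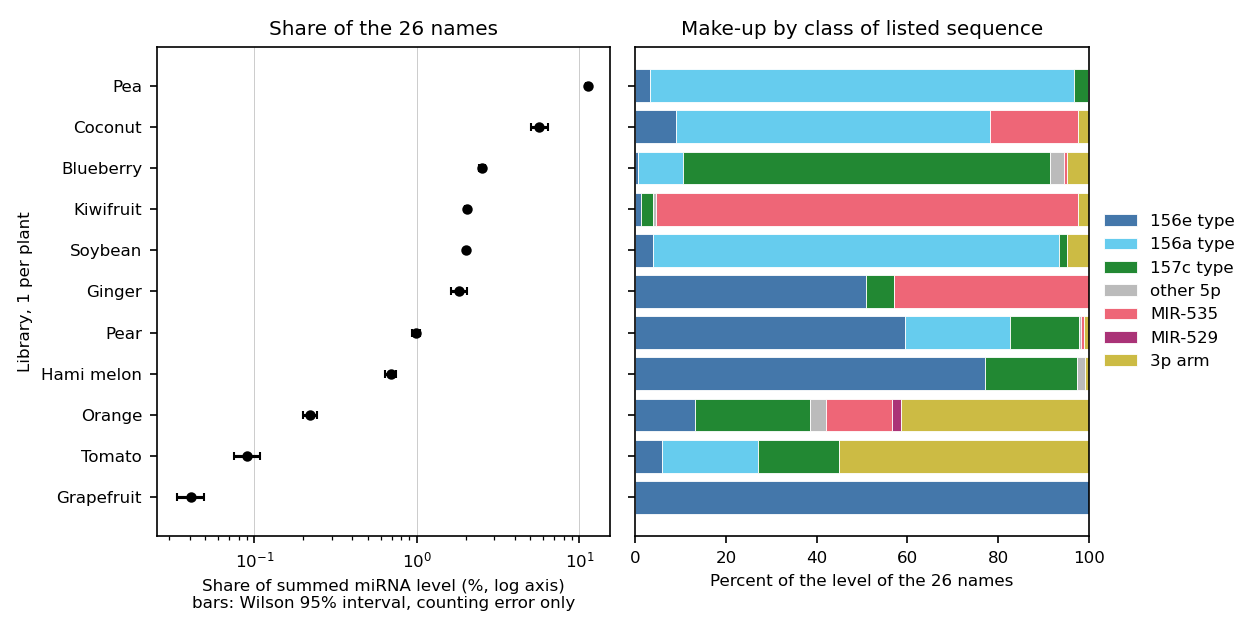
Share of the 26 members in the summed miRNA level of each library (left, percent on a log axis, Wilson 95% intervals for counting error) and the make-up of that level by class of listed sequence (right, percent of the members' level). The MIR-156a type fills most of the bar in pea (93.6%), soybean (89.5%) and coconut (69.4%), MIR-535 in kiwifruit (92.9%), the MIR-157c type in blueberry (80.9%) and the 3p arm in tomato (55.1%).

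By class, the MIR-156e type led in 4 libraries (ginger 51.0% of the members' level, pear 59.6%, Hami melon 77.1% and grapefruit 100% of 105 reads). The MIR-156a type led in 3 libraries (coconut, pea and soybean). The MIR-157c type led in blueberry, MIR-535 in kiwifruit, and the 3p arm in orange and tomato. The MIR-156a type was listed in 6 libraries and the MIR-157c type in 9, at 1.80% of the members' level in soybean to 80.9% in blueberry. These classes take the whole level of a name by its most abundant read, so reads with other sequences under the same name are counted with it.

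The 3p strand is the passenger of MIR-156 and MIR-157, and its share of the level of all 26 members had a median of 2.33%. In tomato 65 of 118 reads were of the 3p arm, 55.1% (46.1 to 63.8), and in orange 170 of 411 reads, 41.4% (36.7 to 46.2). The share was 4.84% in blueberry, 4.72% in soybean, 2.42% in kiwifruit, 2.33% in coconut, 1.08% in pear, 0.824% in Hami melon and 0.214% in pea. Ginger and grapefruit listed no 3p name and count as 0 in the median, though 3p reads below the smallest listed count could be missing. Because no 3p name of MIR-535 or MIR-529 was listed, the share was also taken of MIR-156 and MIR-157 reads alone, where it was 34.3% in kiwifruit (185 of 540 reads, 30.4 to 38.4), 49.6% in orange (170 of 343 reads, 44.3 to 54.8) and 2.88% in coconut, with a median of 2.88%. The kiwifruit value thus depends on whether MIR-535 is counted. Where the names that state no arm were left out, the share of all members was 46.4% in soybean, 17.3% in kiwifruit, 7.59% in coconut, 3.87% in pea, 2.94% in pear and 1.37% in Hami melon, since the names left out are all of the 5p arm. Tomato and orange, with members' shares of 0.0901% and 0.219%, were thus the libraries where the passenger strand outweighed any single class of 5p reads.

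The 3p names differed between plants. mtr-MIR-156c-3p was listed only in tomato, at 10.3 RPM, and there had the highest level of any member. aly-MIR-157d-3p led the members in orange at 33.3 RPM and was listed in blueberry at 44.3 RPM. mtr-MIR-156i-3p stood at 483 RPM in soybean (425 to 546), 17.3 RPM in pea, 7.98 RPM in kiwifruit and 3.88 RPM in coconut, and the read was the same in soybean and pea. ath-MIR-157c-3p stood at 24.7 RPM in soybean, 3.96 RPM in tomato and 2.33 RPM in blueberry. The tomato read of ath-MIR-157c-3p was the read that blueberry listed as aly-MIR-157d-3p.

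The 3p share of MIR-156 and MIR-157 alone was read beside the passenger share of 5 other conserved families. The passenger strand of MIR-167 had a median of 3.25% over the libraries and a highest value of 25.6% (kiwifruit), that of MIR-396 a median of 3.11% and a highest value of 23.8% (grapefruit), and that of MIR-166 a median of 0.550% and a highest value of 38.4% (tomato). For MIR-159 and MIR-319 the median was 0, with highest values of 0.506% and 15.4%, and each listed its passenger strand in only 3 of 11 libraries. In all these medians a strand that was not listed counts as 0, though it could lie below the smallest listed count. The values of MIR-156 and MIR-157 in tomato, 55.1%, and orange, 49.6%, were above all of these, and that in kiwifruit, 34.3%, was below the highest value of MIR-166. MIR-166, the family that acts on HD-ZIP III transcription factors, also had its highest passenger share in tomato. So did MIR-319, there on only 6 of 39 reads (interval 7.25% to 29.7%).

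Over the 26 members, 3 were listed in at least 8 libraries (aly-MIR-156e-5p, ath-MIR-157c-5p and gma-MIR-156n), against 6.22% of all 418 names. Another 2 were in 4 to 7 libraries (osa-MIR-535-5p and mtr-MIR-156i-3p) and 7 in 2 or 3, among them mtr-MIR-156b-3p (14.4 RPM in pea and 9.97 RPM in kiwifruit) and osa-MIR-156h-3p (5.68 RPM in kiwifruit and 3.65 RPM in Hami melon). At the other end, 14 members were listed in 1 library, against 54.8% of all names, and 9 of these were of the 5p arm and 5 of the 3p arm. These 14 had 5 to 98 reads with a median of 12.5, and 1.47 to 32.1 RPM. The highest was mtr-MIR-156g-5p in Hami melon, followed by smo-MIR-156c in blueberry and mdm-MIR-535b in kiwifruit. The lowest was ath-MIR-156g in pear, on 5 reads. Names that end in 3p numbered 10 of 26, against 22.5% of all names. Of the 69 pairs of member and library, 10 stood among the 20 highest names of their library, in 7 libraries, against 23.2% of all 950 pairs. The libraries listed 32 (ginger) to 127 (soybean) names, so the 20 highest are a larger part of a short list.

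The listed reads were compared with the references as well. In 33 of the 69 pairs the read was identical to its reference, against 41.9% of all pairs. On the 5p arm this held for 32 of 51 pairs and on the 3p arm for 1 of 18, aly-MIR-157d-3p in blueberry. The 5p reads were 16 to 22 nt long and the 3p reads 19 to 22 nt. The read of 16 nt was that of vvi-MIR-156e in orange, at 3.10 RPM. In 3 pairs, all of the 3p arm, the read lay more than 2 mismatches from its reference without gaps (osa-MIR-156h-3p and zma-MIR-156a-3p in kiwifruit and osa-MIR-156j-3p in orange), and their levels were 5.68, 1.99 and 1.86 RPM. With gaps allowed these reads lay 3, 2 and 2 edits from the reference, so only 1 pair was over 2 edits.

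Beside the other families, the squamosa regulators stood below the middle of the order only in grapefruit. Summed over the 4 families they ranked 3 of 55 families in pea, 4 of 51 in blueberry, 7 of 24 in coconut, 8 of 51 in kiwifruit, 9 of 20 in ginger, 9 of 51 in Hami melon, 10 of 82 in soybean and 14 of 55 in pear. In orange they ranked 22 of 49, in grapefruit 26 of 43 and in tomato 26 of 77. MIR-166 had a median share of 11.2% and lay above the members in 10 libraries, with ginger the exception. MIR-159, which acts on MYB genes, had a median of 6.88% and lay above them in 9 libraries. MIR-396, which acts on growth-regulating factor genes, had a median of 2.05% and lay above in 7, and MIR-319 (1.28%) and MIR-167 (0.346%) in 4 each. The members sum 4 families and each of the others is 1, so these ranks and counts depend on the pooling. With MIR-156 and MIR-157 alone the median was 0.986%, and the share in ginger was 1.04%, below the 1.22% of MIR-166. In kiwifruit it was 0.143%, below MIR-319 (0.672%) and MIR-167 (0.346%). The highest share of the members was 277 times the lowest, against 61.9 times for MIR-166, 123 times for MIR-167, 434 times for MIR-159, 896 times for MIR-396 and 1619 times for MIR-319. The 277 times rests on grapefruit as the lowest library. Without grapefruit the members' fold was 125, beside 61.9 for MIR-166, 123 for MIR-167, 434 for MIR-159, 664 for MIR-396 and 1619 for MIR-319. Without the fragment-like families described below the fold was 49.7 for the members, 41.5 for MIR-166 and 125 for MIR-167. In that setting it was 168 for MIR-159, 609 for MIR-396 and 850 for MIR-319.

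**Figure D3:**
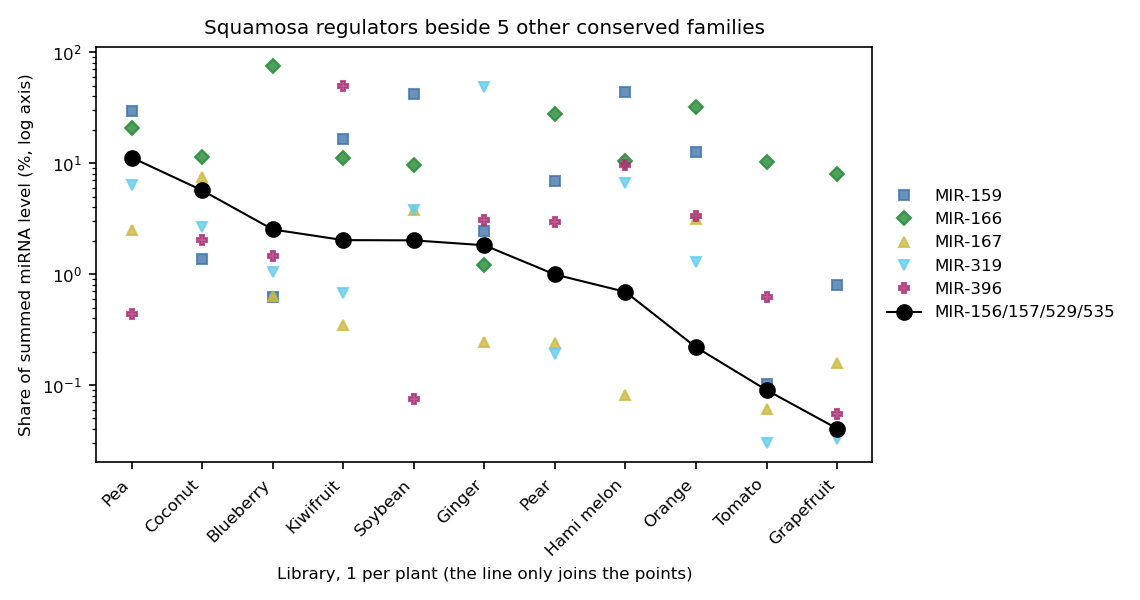
Share of the summed miRNA level in percent (y axis, log) of the members (black) and of MIR-166, MIR-159, MIR-396, MIR-319 and MIR-167 in each library (x axis, 1 per plant). The members run from 11.2% in pea to 0.0405% in grapefruit, and MIR-166 lies above them in every library except ginger.

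The denominator mattered for the low shares. As an alternative, 11 families that may hold fragments of other RNAs, MIR-6478 and MIR-8155 among them, were left out of the sum, and whether they hold such fragments was not tested. Without these fragment-like names the members' share was 0.328% in grapefruit, 0.271% in tomato, 9.08% in coconut and 2.88% in ginger, and the highest share stayed that of pea at 11.4%. With listed reads under 18 nt left out it was 0.0727% in grapefruit, 0.159% in tomato and 10.4% in coconut. Grapefruit remained the lowest library with the length limit, and without the fragment-like names a share of 0.229% was lowest, in orange.

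MIR-172, the miRNA that SPL factors switch on, was listed in 5 libraries under 7 names. Its 3p strand, the one that acts on AP2-like transcripts, stood at 260.0 RPM in kiwifruit, 45.3 RPM in orange, 4.83 RPM in grapefruit, 2.35 RPM in pear and 1.54 RPM in tomato. The 5p strands of MIR-156 and MIR-157 stood at 54.5, 35.8, 84.6, 323 and 11.7 RPM in these libraries, in the same order. Kiwifruit and orange were the libraries in which MIR-172 was above MIR-156 and MIR-157.

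The ratio of MIR-156 and MIR-157 to MIR-172 reads was 0.209 in kiwifruit (exact interval 0.186 to 0.235) and 0.790 in orange (0.643 to 0.969). It was 7.57 in tomato (3.43 to 19.7), 17.5 in grapefruit (7.78 to 48.8) and 137 in pear (69.3 to 318), where the MIR-172 reads numbered only 7, 6 and 8. With MIR-529 and MIR-535 added to the numerator, kiwifruit moved to 4.41 and orange to 1.10, and with all strands of both families kiwifruit stood at 0.132, orange at 1.10, tomato at 16.9 and pear at 25.8. The read of ath-MIR-172b-3p in kiwifruit, orange and pear is shown to tell it from the members, with the seed in capitals.
ath-MIR-172b-3p: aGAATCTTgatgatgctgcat

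In blueberry, coconut, ginger, Hami melon, pea and soybean no MIR-172 name was listed, while 5p MIR-156 and MIR-157 stood at 131 RPM (coconut) to 14827 RPM (pea). The smallest listed value in these libraries was 2.33 RPM (blueberry) to 29.5 RPM (ginger), so a level of MIR-172 below it could not be seen. The 4 libraries with the highest read totals behind RPM (kiwifruit, orange, tomato and pear) all listed MIR-172, and of the other 7 only grapefruit did. By the high-quality reads that the paper reports the order is another, with blueberry highest. The part of either read number in this pattern was not tested.

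**Figure D4:**
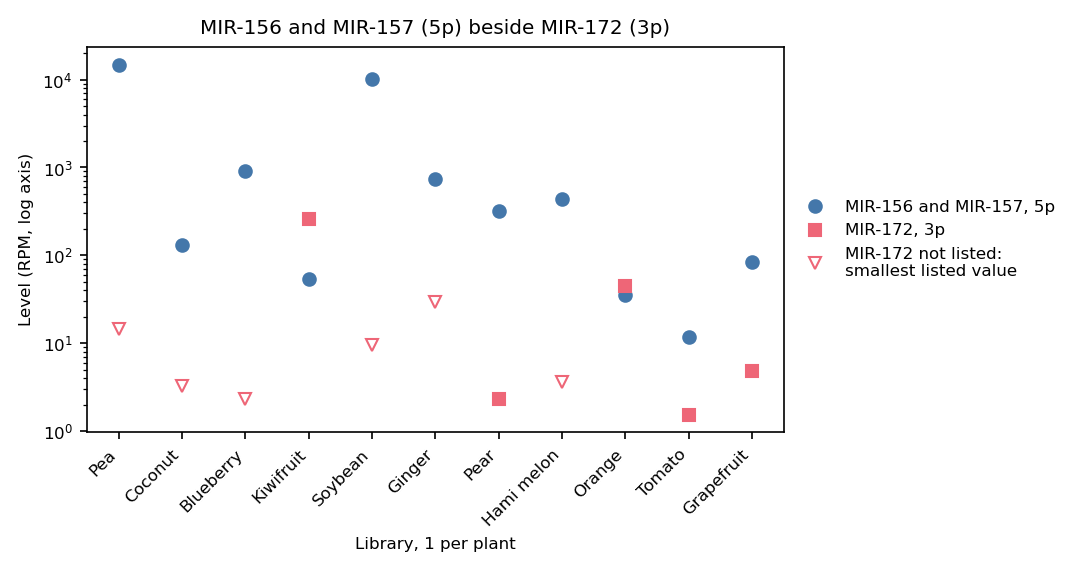
Level in RPM (y axis, log) of the 5p strands of MIR-156 and MIR-157 (circles) and of the 3p strand of MIR-172 (squares) in each library (x axis, 1 per plant), with open triangles at the smallest listed value where MIR-172 is not listed. The square lies above the circle in kiwifruit (260.0 against 54.5 RPM) and orange (45.3 against 35.8 RPM).

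Among the 24 other families listed in at least 8 libraries, those whose share ordered the 11 libraries most like the members were MIR-167 (Spearman rho 0.66, Pearson r 0.45), MIR-1507 (rho 0.61, r 0.74) and MIR-2118 (rho 0.56, r 0.86). These values describe 11 points from 1 library each, and shares of 1 library are parts of the same sum. Without pea and coconut, the libraries farthest from the median share, rho was 0.60 for MIR-167, 0.36 for MIR-1507 and 0.18 for MIR-2118. With the fragment-like names left out MIR-319 came first (rho 0.54) and MIR-167 had a rho of 0.38. By Pearson r of log2 shares the order was MIR-319 (0.69), MIR-2118 (0.68), MIR-1507 (0.62) and MIR-167 (0.57), so the order of these families depends on the measure.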

How the data were processed

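The authors isolated EPDELNs by differential centrifugation, sequenced 1 small RNA library per plant on an Illumina HiSeq platform, filtered the reads and matched them, with the MIRPIPE pipeline, to the mature miRNAs of plants in miRBase, allowing up to 2 mismatches. The deposited values are RPM, scaled by the authors, with the most abundant read of each miRNA and library beside them. Their 950 values above 0 were the same in the merged table and in the files of single libraries (relative tolerance 1e-07). RPM values were divided by 1 step per library, and all were whole within 0.01 of a read. The smallest count was 5 reads, or 7 in ginger, so unlisted names were not read as absent. In sums, shares and medians they count as 0. No normalization was added. Groups were the plants of the labels, with 1 library each, and no comparison by way of juicing was made, since the study's methods give it by plant, the labels of the libraries do not, and with different plants in each way the way and the plant cannot be told apart.

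Reads were aligned to references by sliding without gaps, or with edlib 1.3.9.post1 where gaps were allowed. Names without an arm took that of the closest reference. The members, lists and alternatives were chosen with earlier results of these data known. Members listed in at least 3 libraries or holding at least 1% of a library are given in every library, others by ranges, and any further member named was picked with its value in view. The recovery of reads and the alignment were tested on simulated data. Alternatives were other denominators, detection limits, arm rules, classes by reference and leaving out each library. Intervals came from scipy 1.17.1 and figures from matplotlib 3.10.9, under Python 3.11.15 with pandas 2.3.3 and numpy 2.4.6. No genome was used, so hairpins and loci were not analysed here.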

Additional observations from a re-analysis of the deposited data

How the results depend on the processing

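The median share of the members, 1.82%, ran from 0.986% (MIR-156 and MIR-157 only) to 2.11% (without the fragment-like names) over the alternatives and from 1.41% to 1.92% when each library was left out. The median 3p share, 2.33%, ran from 1.70% to 2.37% when each library was left out, and was 1.09% with at least 10 reads and 5.56% with names that state an arm. Of 66 shares of single libraries under an alternative, 43 stayed within the counting interval. This count pools settings that removed few reads with settings that changed the sum. The limits on mismatches, edits and reads gave folds of 0.866 to 1.003. Without the fragment-like names the folds were 1.01 to 8.09, and with reads of 18 nt or more 0.968 to 1.83. With the highest of the smallest listed values, 29.5 RPM, as the limit in every library, 10 of 26 names remained, against 21 with at least 10 reads. With missing or added end bases not counted, 50 listed reads matched their reference, against 33. The leading class was the same in 11 of 11 libraries when set by the reference of the name. An alternative allowing 2 edits with gaps, chosen after seeing the data, left the median share at 1.82%. No paired analysis was possible because each plant has 1 library. Few reads of members limit the precision in tomato and grapefruit (118 and 105, of 130911 and 259013 miRNA reads), and the read totals behind RPM limit every statement on unlisted names. The folds between highest and lowest share without grapefruit or the fragment-like names were also added after seeing the data.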
